A study of Mus musculus with 39 samples.

Results

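The comparison described here set lungs of mice fed permethrin against lungs of mice fed isoniazid, both after 7 days of diet. Its members were the arrays whose titles name 5000 ppm permethrin for 7 days (5 animals) and 2500 ppm isoniazid for 7 days (5 animals), 10 of the 39 arrays of the series. All animals were females of the outbred Crlj:CD1(ICR) strain on a powdered diet, and those of both groups were 11 weeks old. Per the labels' protocols the control diet held 0 ppm of either agent, permethrin was also fed at 10000 ppm, a second set of animals was fed for 14 days (12 weeks old), and isoniazid served as the positive control for tumor induction. Each array held total RNA of the whole lung of 1 animal, so fewer cells of a type and less RNA per cell cannot be told apart. The comparison asks in which transcripts the pyrethroid and the positive control differed at the earlier time. The agents differ in kind and in dose, and no equal dose of both was fed.

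Permethrin is a synthetic pyrethroid insecticide that holds voltage-gated sodium channels of nerve cells open, and carboxylesterases cleave its ester bond. Isoniazid is a hydrazide used against tuberculosis. It is acetylated and hydrolysed in the body, and it reacts with pyridoxal phosphate, the vitamin B6 cofactor of many enzymes. Electrophiles and oxidants release the transcription factor NRF2 from its inhibitor KEAP1, and NRF2 then acts through antioxidant response elements (AREs) of genes for glutathione, thioredoxin and quinone metabolism. The aryl hydrocarbon receptor acts through xenobiotic response elements (XREs), and Cyp1a1 is its classical target. The nuclear receptors CAR and PXR drive a further set of genes of drug metabolism, best known from liver. In the lung, club cells of the airways carry much of the P450 metabolism, and club and alveolar type 2 cells are seen as sources of lung tumours in mice.

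Of the 13020 genes tested, 11 (0.0845%) differed between the diets at an adjusted p under 0.05 (limma over all 39 arrays, Benjamini-Hochberg adjustment), and 643 had an unadjusted p under 0.05. Higher with permethrin were 9 genes (0.0691%), all of them for enzymes of detoxification or redox defence: the carboxylesterases Ces1g and Ces1f, the glutathione S-transferase Gsta2, the quinone reductase Nqo1, the glutathione peroxidase Gpx2, the aldehyde oxidase Aox1, the thioredoxin reductase Txnrd1, the sulfiredoxin Srxn1 and the epoxide hydrolase Ephx1. Higher with isoniazid were 2 genes (0.0154%), Cyp1a1 and Alas1, the first enzyme of haem synthesis. The differences ran from 1.45-fold for Ephx1 to 10.5-fold for Cyp1a1. In all 11 genes the 5 animals of one diet lay apart from the 5 of the other, which was so for 191 (1.47%) of all genes tested. Over all genes the median difference was -0.02 on the log2 scale, and 43.8% of genes were higher with permethrin.

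Promoter sequences of 4 of these genes are shown, chosen because they hold letters that match core motifs of NRF2 or the aryl hydrocarbon receptor. RefSeq's table (GRCm38.p6) gave 13 promoters, each from 250 bases before to 50 bases after a transcript's start, for 10 of the 11 genes; Ces1f was not matched. Both strands were searched for TGACNNNGC, an ARE core, and for GCGTG, an XRE core. Metal response element cores (TGCACNC and TGCGCNC) and an E-box (CACGTG) were also searched for and are not described here. The ARE core was found in 2 promoters, 1 of Srxn1 and 1 of Txnrd1, and in 12.4% of all 32851 promoters of that length. The XRE core was found in 9 promoters of 6 genes, and in 32.4% of all promoters. These 9 are not all separate, since the Alas1 promoters overlap and hold the same match, and several are of Txnrd1. The promoters of Nqo1, Gpx2, Ephx1 and Ces1g held neither core. The Srxn1 and Txnrd1 promoters shown also hold XRE cores, at positions -94 and 45 and at -45 and 26, which are not marked. A match describes these letters and is not a measured binding site. In the Srxn1 promoter (chr2:152105274-152105573, plus strand) the ARE core in capitals lies on the reverse strand from base 28 after the start, and in the Txnrd1 promoter (chr10:82858956-82859255, plus strand) on the reverse strand at position -92 from the start. In the Cyp1a1 promoter (chr9:57697363-57697662, plus strand) and the Gsta2 promoter (chr9:78347096-78347395, minus strand, shown in the direction of the gene) capitals mark an XRE core, at position -54 and -7 from the start.
Srxn1: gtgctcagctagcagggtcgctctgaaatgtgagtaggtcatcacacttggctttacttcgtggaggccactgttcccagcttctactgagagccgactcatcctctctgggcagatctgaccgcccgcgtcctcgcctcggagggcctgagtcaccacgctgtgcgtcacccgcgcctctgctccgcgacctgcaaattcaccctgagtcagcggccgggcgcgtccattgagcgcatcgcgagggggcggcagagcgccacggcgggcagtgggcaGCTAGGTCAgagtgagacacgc
Txnrd1: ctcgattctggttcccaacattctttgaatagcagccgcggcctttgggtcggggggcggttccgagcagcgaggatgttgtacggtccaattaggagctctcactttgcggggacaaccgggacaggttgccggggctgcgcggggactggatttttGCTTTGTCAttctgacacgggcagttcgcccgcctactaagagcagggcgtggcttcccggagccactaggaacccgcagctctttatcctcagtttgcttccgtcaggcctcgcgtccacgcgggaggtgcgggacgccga
Cyp1a1: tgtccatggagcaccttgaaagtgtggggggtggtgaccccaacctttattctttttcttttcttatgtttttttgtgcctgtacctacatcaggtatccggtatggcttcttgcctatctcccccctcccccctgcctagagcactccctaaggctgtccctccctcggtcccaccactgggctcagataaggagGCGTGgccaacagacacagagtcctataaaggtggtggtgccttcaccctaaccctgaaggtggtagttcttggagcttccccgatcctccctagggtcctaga
Gsta2: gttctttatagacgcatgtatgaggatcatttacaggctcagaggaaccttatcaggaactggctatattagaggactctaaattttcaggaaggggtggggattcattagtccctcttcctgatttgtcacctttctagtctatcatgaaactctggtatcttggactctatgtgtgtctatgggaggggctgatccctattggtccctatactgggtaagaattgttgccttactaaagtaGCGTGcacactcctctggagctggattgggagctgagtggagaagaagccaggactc

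Values of single animals are log2 of the array signal after quantile normalization and are given in the order of the replicate numbers; 1 unit is a doubling. Differences are permethrin minus isoniazid on that scale with their standard error (SE), n = 5 against 5, and each adjusted p is limma's over all 13020 genes.

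Cyp1a1, the P450 that oxidises polycyclic aromatic compounds, showed the widest gap. Its log2 signal was 4.68, 4.66, 4.42, 5.91 and 4.17 with permethrin and 8.65, 8.23, 7.55, 8.67 and 7.68 with isoniazid. Every isoniazid animal lay above every permethrin animal, and the controls, at 5.07 to 7.18, lay between the groups and overlapped only the permethrin animals. The difference was -3.39 (SE 0.371, adjusted p = 7.92e-07), a level 10.5-fold higher with isoniazid. Its size varied with the processing, from -3.68 to -2.78 over the 22 other settings tried. Against the same 5 controls the isoniazid animals were 4.46-fold higher (log2 2.16, adjusted p = 0.00778), and the permethrin animals gave -1.23 (adjusted p = 0.822), which did not pass. With 10000 ppm permethrin the signal was 4.03 to 5.22. The permethrin animal at 5.91, replicate 4, was the only one of its group above 4.68.

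Alas1, whose enzyme makes the first intermediate of haem and sets its rate outside red cells, was the other gene higher with isoniazid. Its log2 signal was 10.20, 10.33, 10.19, 10.20 and 9.73 with permethrin and 10.61, 11.16, 10.94, 10.84 and 10.91 with isoniazid. The highest permethrin animal lay below the lowest isoniazid animal, and permethrin replicate 5 stood apart below the rest of its group. The difference was -0.76 (SE 0.132, adjusted p = 0.00277), or 1.69-fold higher with isoniazid. The controls spanned 9.48 to 10.16 and lay below every isoniazid animal; against them isoniazid gave 1.98-fold (log2 0.99, adjusted p = 0.000103) and permethrin gave 0.23 on the log2 scale, which did not pass. The second Alas1 probe set gave a difference of -0.72.

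Ces1g and Ces1f encode carboxylesterases, a class of enzymes that hydrolyse esters such as pyrethroids. Ces1g stood at 7.65, 7.62, 7.08, 7.94 and 7.48 with permethrin and at 5.15, 5.34, 5.21, 4.72 and 5.01 with isoniazid. No isoniazid animal reached the lowest permethrin animal, and the controls, at 4.56 to 6.70, also lay below all 5. The difference of 2.47 (SE 0.283, adjusted p = 1.33e-06) was a 5.53-fold level with permethrin. Against control it was 1.88 with permethrin (adjusted p = 0.000292), and -0.58 with isoniazid, which did not pass (adjusted p = 0.753). Ces1f stood at 7.68, 7.54, 7.65, 7.64 and 7.66 with permethrin and at 6.01, 6.64, 6.14, 5.53 and 6.37 with isoniazid. The groups were separate again, with controls at 6.14 to 6.84, and the difference was 1.5 (SE 0.241, adjusted p = 0.000905), or 2.83-fold. The Ces1f probe set is of a type that can bind transcripts of more than 1 gene, so a part of its signal may belong to a related esterase.

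Gsta2 belongs to the alpha class of glutathione S-transferases, which join glutathione to electrophiles. Its log2 signal was 9.06, 9.15, 9.19, 8.80 and 9.25 with permethrin and 7.69, 7.70, 7.48, 6.88 and 7.74 with isoniazid. The gap between the groups exceeded the spread within either one, and the controls (7.08 to 7.44) lay within the isoniazid range. The difference was 1.59 (SE 0.213, adjusted p = 3.21e-05), or 3.01-fold. Its near-identical neighbour Gsta1 may share this probe set, so the value is uncertain as to the gene.

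Nqo1 reduces quinones by transfer of a pair of electrons, and it is a target of both NRF2 and the aryl hydrocarbon receptor. It stood at 6.46, 6.65, 6.53, 6.30 and 6.54 with permethrin and at 5.39, 4.85, 4.63, 5.2 and 4.99 with isoniazid. All permethrin animals lay above all isoniazid animals and above the controls, which spanned 4.65 to 4.95. The difference was 1.48 (SE 0.231, adjusted p = 0.000605), or 2.80-fold, in the direction opposite to that of Cyp1a1.

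Gpx2, a glutathione peroxidase of epithelia, stood at 8.41, 8.67, 8.62, 8.84 and 8.67 with permethrin and at 7.50, 7.57, 7.45, 7.17 and 7.72 with isoniazid. The groups were separate, and the controls, at 6.95 to 7.62, overlapped the isoniazid animals. The difference was 1.16 (SE 0.232, adjusted p = 0.0214), or 2.24-fold.

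Txnrd1 returns oxidised thioredoxin to its reduced form, and Srxn1 repairs overoxidised peroxiredoxins. Txnrd1 stood at 9.48, 9.63, 9.60, 9.52 and 9.24 with permethrin and at 8.89, 8.72, 8.71, 8.63 and 8.54 with isoniazid, with controls at 8.22 to 8.57. Srxn1 stood at 7.24, 7.39, 7.28, 7.22 and 7.34 with permethrin and at 6.59, 6.45, 6.72, 6.70 and 6.48 with isoniazid, with controls at 6.35 to 6.54. In both genes every permethrin animal exceeded every isoniazid and control animal. The differences were 0.80 for Txnrd1 (SE 0.137, adjusted p = 0.00264; 1.74-fold) and 0.71 for Srxn1 (SE 0.141, adjusted p = 0.0214; 1.63-fold). The Srxn1 probe set can bind transcripts of more than 1 gene; the other 3 Srxn1 probe sets, all dimmer, gave 1.27, 0.59 and 0.76. The other 2 of Txnrd1, dimmer as well, gave 0.58 and 0.77.

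Ephx1, the microsomal epoxide hydrolase, and Aox1, a molybdenum-dependent aldehyde oxidase, completed the set. Ephx1 stood at 9.91, 10.02, 10.10, 10.30 and 9.98 with permethrin and at 9.50, 9.55, 9.38, 9.56 and 9.66 with isoniazid. Aox1 stood at 8.50, 8.73, 8.72, 8.71 and 8.32 with permethrin and at 7.89, 7.77, 7.84, 7.51 and 7.69 with isoniazid. Neither gene overlapped between the diets. The difference of 0.53 for Ephx1 (SE 0.107, adjusted p = 0.0214; 1.45-fold) was the smallest of the 11. That of Aox1 was 0.86 (SE 0.175; 1.81-fold), with the highest adjusted p of the 11, 0.0245. Controls lay at 9.16 to 9.53 for Ephx1 and at 7.65 to 8.08 for Aox1.

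**Figure D1:**
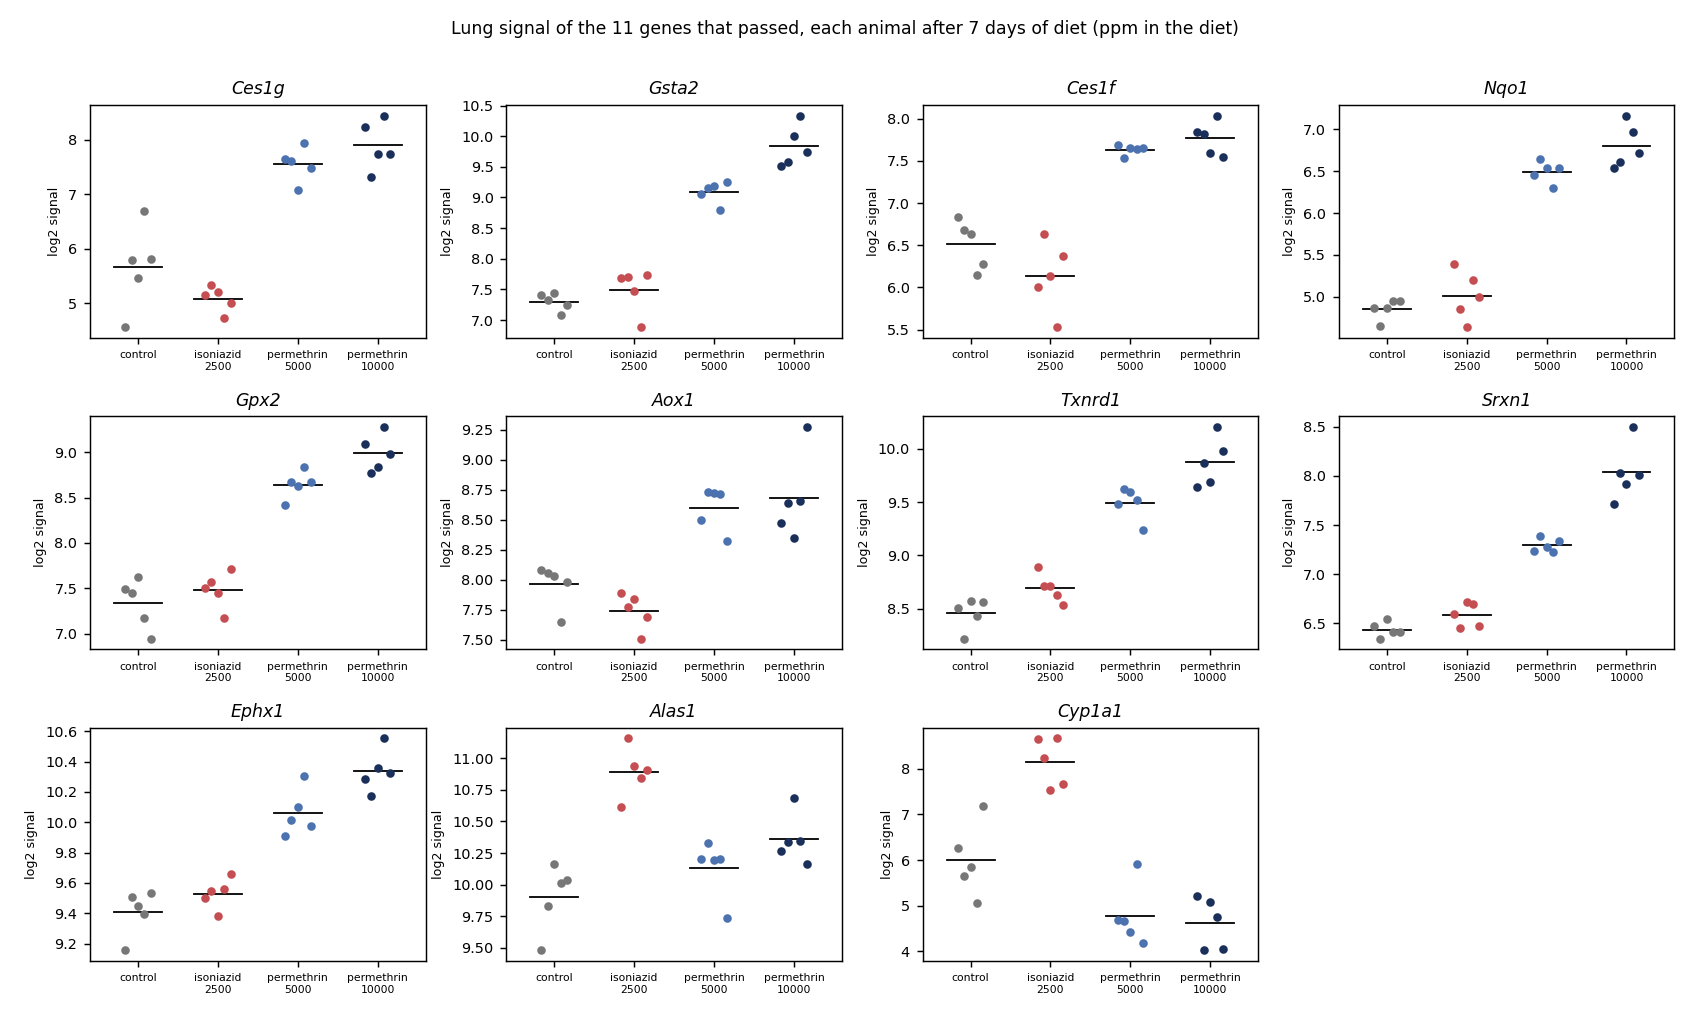
Log2 signal (vertical axes) of the 11 genes that passed, 1 point for each animal and a line at each group's mean, for control, isoniazid 2500 ppm, permethrin 5000 ppm and permethrin 10000 ppm after 7 days (n = 5 each). In Cyp1a1 and Alas1 the isoniazid animals lie above the 5000 ppm permethrin animals, and in the other 9 genes below them, with no overlap in any panel.

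How firmly each gene stood differed. Cyp1a1, Ces1g, Gsta2, Ces1f and Nqo1 passed in every one of the 22 other settings tried, with adjusted p-values up to 0.00919. Leaving out 1 animal at a time gave 7 to 13 genes. The count fell to 7 without permethrin replicate 2, without permethrin replicate 3, without isoniazid replicate 1 and without isoniazid replicate 2, each time by the loss of Aox1, Ephx1, Gpx2 and Srxn1. Centring each array on its median in place of quantile normalization gave 6 genes, 5 of the 11 and Gclc, with Alas1, Aox1, Ephx1, Gpx2, Srxn1 and Txnrd1 lost. Array weights gave 37 genes, which held the same 11.

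To place the 11 genes, each diet was set against the 5 control animals of 7 days. These 2 comparisons share their controls, and each shares its treated animals with the comparison above, so they are given side by side and are no independent support. Permethrin against control had 12 genes past the threshold (0.0922%), all higher, and isoniazid against control had 6 (0.0461%), 4 higher and 2 lower (2 higher and none lower with each array centred on its median). Among the 9 genes higher with permethrin, 8 also passed against control: Gsta2 at 1.79 (adjusted p = 6.25e-06), Txnrd1 at 1.04 (3.78e-05), Nqo1 at 1.64 (9.91e-05), Ces1g, Srxn1 at 0.86 (0.0011), Ephx1 at 0.65 (0.0011), Gpx2 at 1.31 (0.00398) and Ces1f at 1.12 (0.0468). Aox1 gave 0.63 (adjusted p = 0.499). None of these 9 passed for isoniazid against control, where Ces1g, Ces1f and Aox1 gave -0.58, -0.38 and -0.22, and the other 6 gave 0.12 to 0.24. Both genes higher with isoniazid passed for isoniazid against control. The count for isoniazid against control depended on single animals: it was 1 without isoniazid replicate 4, 3 without isoniazid replicate 3, control replicate 1 or control replicate 2, and 22 without isoniazid replicate 5.

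**Figure D2:**
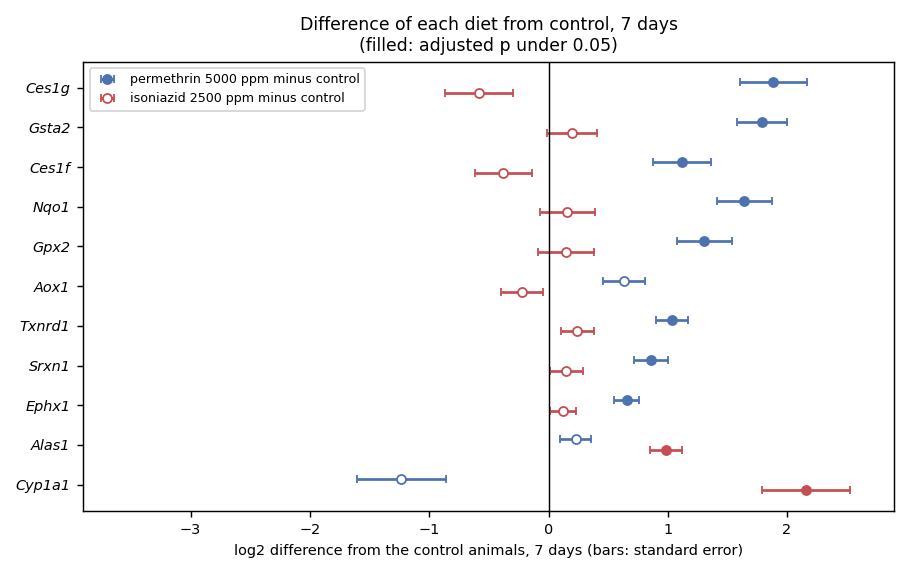
Log2 difference from the 7-day controls (horizontal axis) of the 11 genes, with permethrin 5000 ppm in blue and isoniazid 2500 ppm in red; bars are standard errors, and filled points had an adjusted p under 0.05. The 9 upper genes have the permethrin point to the right and the isoniazid point between -0.58 and 0.24, and the 2 lowest have the isoniazid point to the right.

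The 5 animals given 10000 ppm permethrin for 7 days are set beside these groups with no test of dose. Ces1g stood at 7.33 to 8.45, Gsta2 at 9.52 to 10.34, Nqo1 at 6.53 to 7.17 and Gpx2 at 8.77 to 9.28. Txnrd1 stood at 9.65 to 10.21, Srxn1 at 7.72 to 8.50 and Ephx1 at 10.18 to 10.55, Ces1f at 7.55 to 8.04 and Aox1 at 8.35 to 9.27. All of these ranges lay above every isoniazid animal of 7 days. The genes had been picked as higher with permethrin than in these same isoniazid animals. The share of all genes separated in this way was not counted. Alas1 stood at 10.16 to 10.69 and overlapped the isoniazid animals, of which the lowest was at 10.61. The overlap came from replicate 3 alone, at 10.69, and the rest of the 10000 ppm animals lay below every isoniazid animal. Gsta2, Txnrd1 and Srxn1 ranges also lay above the highest animal at 5000 ppm, for which no share over all genes was counted either.

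The same contrast was made in animals fed for 14 days, which share no animal with the 7-day groups. There 20 genes passed (0.154%), 16 higher with permethrin and 4 higher with isoniazid, and 904 had an unadjusted p under 0.05. Of the 11 genes of 7 days, 10 passed again (90.9% of the 11 and 50% of the 20), and all 11 had the same sign. Both contrasts came from the same fit of all arrays, with a shared estimate of each gene's spread. The 14-day p-values are therefore not independent of those of 7 days. The count of 20 fell with only the groups compared and with median centring, as given with the processing settings. How many of the 11 passed under those settings is not given here. Cyp1a1 gave -3.65 (adjusted p = 4.81e-08), Ces1g 2.92 (3.32e-08), Ces1f 2.35 (4.81e-08), Gsta2 1.48 (9.52e-05), Gpx2 1.48 (0.000495), Nqo1 1.25 (0.00514), Txnrd1 0.85 (0.000654), Aox1 0.81 (0.031), Ephx1 0.81 (2.3e-05) and Srxn1 0.77 (0.00514). Alas1 was the exception, with -0.51 (SE 0.132, adjusted p = 0.162): isoniazid animals stood at 10.47 to 11.20 and permethrin animals at 10.12 to 10.68. The groups stayed apart in 8 of the 11 genes, and the share of all genes that did so at 14 days was not counted. In Gpx2, Aox1 and Alas1 the groups overlapped, and in Gpx2 and Aox1 the overlap came from isoniazid replicate 5, at 8.66 and 8.59.

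The change of the difference from 7 to 14 days was tested as a term of its own. No gene passed (0%; limma, 351 genes at an unadjusted p under 0.05), also under each other setting tried. The largest change among the 11 was that of Ces1f, 0.85 (SE 0.341, unadjusted p = 0.0168), from 1.5 to 2.35. For Alas1 it was 0.25 (SE 0.187), so its failure to pass at 14 days was not shown to be a change. The 5 genes of lowest p over all genes included Marco, a macrophage scavenger receptor (-1.48 at 7 days and 0.40 at 14), and Myl3, a heart muscle myosin light chain (1.26 and -0.61).

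Genes past the threshold only at 14 days had the same sign at 7, all 10 of them. Cbr3, a carbonyl reductase, gave 0.81 at 14 days (adjusted p = 0.0219) and 0.61 at 7 (0.276). Gstm1, a glutathione S-transferase, gave 0.51 (0.00624) and 0.27 (0.675). Entpd5 gave 1.12 (0.00231) and 0.67 (0.365), and Cp, which encodes the copper oxidase ceruloplasmin, 1.15 (0.031) and 0.77 (0.534). Higher with isoniazid at 14 days were Iffo1 at -0.81, Hey1 at -0.76 and Hsd17b7, an enzyme of cholesterol and steroid synthesis, at -0.65; at 7 days they gave -0.19, -0.42 and -0.18. Arrays with a high 3' to 5' ratio of Gapdh, a mark of RNA quality, were all 7 in 14-day groups, 2 of them with 5000 ppm permethrin and 2 with isoniazid. Without those arrays the 14-day count was 20 as well.

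**Figure D3:**
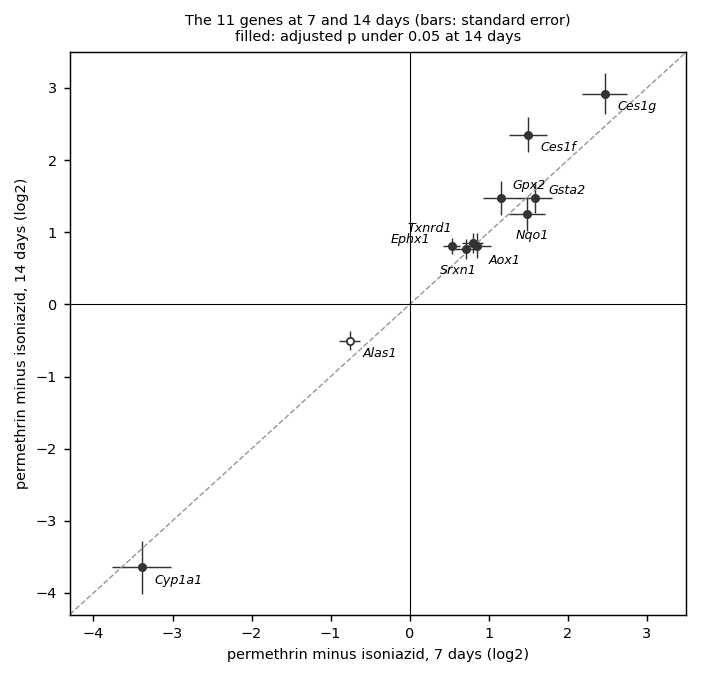
Permethrin 5000 ppm minus isoniazid on the log2 scale at 7 days (horizontal axis) and at 14 days (vertical axis) for the 11 genes chosen at 7 days, with standard errors and a dashed line of equality; filled points had an adjusted p under 0.05 at 14 days. All points lie in the upper right or lower left part, and only that of Alas1 is open. The adjusted p-values are from the fit of all arrays together, which also gave those of 7 days.

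The 11 genes were then set within lists of related genes, which are described by counts and medians against the median of -0.02 over all genes and the 0.0845% of all genes that passed in either direction. Of 19 glutathione S-transferases tested, 1 (Gsta2) rose with permethrin relative to isoniazid, 15 had a positive difference, and the list's median was 0.07. Gstt1 and Gsta3 came next, at 0.49 and 0.35. None of the 12 genes of glutathione synthesis and recycling passed. Gclc, the catalytic subunit of the rate-limiting step, gave 1.06 (SE 0.259, adjusted p = 0.149), with permethrin animals at 9.84 to 10.69 and isoniazid animals at 8.72 to 9.48, which do not overlap; it passed in 4 of the 22 other settings, among them median centring. Gclm, its modifier subunit, gave 0.53 (adjusted p = 0.457), and Gclm but not Gclc passed for permethrin against control (0.81, adjusted p = 0.0196).

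Among 11 thioredoxin, sulfiredoxin and peroxiredoxin genes 2 passed, Txnrd1 and Srxn1, with a list median of 0.07. Among 10 glutathione peroxidases, superoxide dismutases and catalase 1 passed, Gpx2, with a median of 0.02. Of 16 quinone, carbonyl and aldo-keto reductases 1 passed, Nqo1, with a median of 0.08. Blvrb, which reduces biliverdin and flavins, gave 0.88 (adjusted p = 0.254; 7.14 to 7.91 with permethrin, 6.24 to 6.99 with isoniazid, no overlap) and passed against control (1.25, adjusted p = 0.00802). None of 18 aldehyde dehydrogenases passed, though Aldh3a1, which oxidises aromatic aldehydes, gave 1.08 (adjusted p = 0.254) with animals at 8.07 to 9.14 against 7.18 to 7.77. Aldh3a1 passed for permethrin against control (1.51, adjusted p = 0.00847). None of the 9 genes of NADPH supply passed (median -0.07).

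The 2 esterases that passed stood among 11 carboxylesterases and other ester hydrolases, whose median was 0.01. The neighbours in the Ces1 family gave 0.33 for Ces1e and -0.14 for Ces1d. Of 16 CAR and PXR targets 4 passed, Ces1g, Gsta2 and Ephx1 upward and Alas1 downward, with a median of 0.08, beside 0.0845% of all genes tested. Cyp2b10, the classical CAR target of liver, gave -0.24 (SE 0.091, adjusted p = 0.769), with permethrin animals at 10.80 to 11.08 and isoniazid animals at 10.98 to 11.38. Cyp3a11, the classical PXR target, gave 0.28 and did not pass. None of 23 P450s outside the Cyp1 family and their electron donors passed (10 positive, median -0.06), nor any of 13 ABC efflux transporters (median -0.03).

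The aryl hydrocarbon receptor list split in sign. Of its 8 genes tested Cyp1a1 fell and Nqo1 rose with permethrin relative to isoniazid. Cyp1b1 gave -0.50, Tiparp -0.18, Ahr 0.27 and Aldh3a1 1.08, none of which passed. Of 12 haem synthesis genes only Alas1 passed. Alas2, the red-cell form, and Fech, which inserts iron, gave 1.92 and 0.84 in the opposite direction, and neither passed. Alas2 is itself a member of the red blood cell list described with the cell types. The mean of that list was also lower with isoniazid, but the groups overlapped (exact permutation test, adjusted p = 0.103). None of 21 genes of haem breakdown and iron handling passed.

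Lists chosen for the agents' own chemistry showed few differences. Of 23 genes of vitamin B6 metabolism and pyridoxal phosphate enzymes only Alas1, itself such an enzyme, passed (median -0.05). None of 5 genes for acetylation and amide hydrolysis of hydrazides passed (median -0.06). All 5 voltage-gated sodium channel genes tested, of 14 listed, had a positive difference (median 0.19), and none passed; at 14 days 1 of 5 was positive (median -0.03). Scn3b, an auxiliary subunit, gave 0.64 (SE 0.151, adjusted p = 0.118) and was lower with isoniazid than in controls (-0.75, adjusted p = 0.0377). None of 15 metallothioneins and zinc transporters passed. The metal-binding Mt1 and Mt2 gave -0.75 and -0.87 (adjusted p = 0.271 and 0.568). Mt1 stood at 8.74, 9.01, 9.05, 8.69 and 9.37 with permethrin and at 9.75, 10.06, 9.80, 9.74 and 9.23 with isoniazid; only isoniazid replicate 5 fell among the permethrin animals. For isoniazid against control Mt1 rose by 1.01 (adjusted p = 0.0377). Selenbp1, a selenium-binding protein, gave -0.36 (SE 0.084, adjusted p = 0.118), with 11.68 to 11.99 against 12.08 to 12.34 and no overlap, and rose by 0.46 with isoniazid against control (adjusted p = 0.00965).

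**Figure D4:**
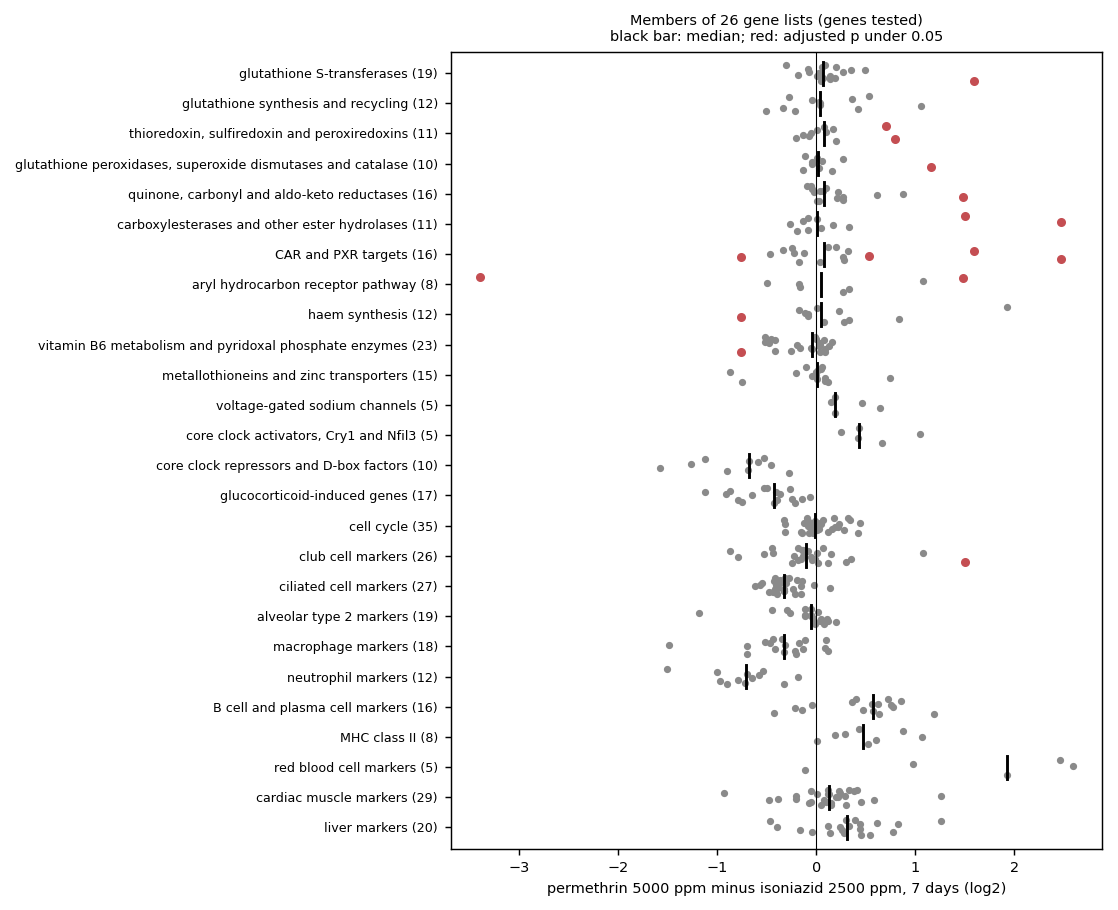
Permethrin 5000 ppm minus isoniazid 2500 ppm at 7 days on the log2 scale (horizontal axis) for each tested member of 26 gene lists, with the number tested in brackets. Points are genes, black bars medians, and red points genes with an adjusted p under 0.05, some of which stand in more than 1 list; most medians of the metabolic lists lie near 0, with single genes far out.

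No clock gene passed the threshold, but the clock lists leaned to one side. In the core clock, ARNTL with CLOCK or NPAS2 turns on Per and Cry genes, Nr1d1, Nr1d2 and the D-box factors Dbp, Tef and Hlf. Most of their transcripts, Cry1 excepted, cycle in roughly opposite phase to Arntl. All 10 repressors and D-box factors tested had a negative difference, from -0.28 for Ciart to -1.57 for Dbp, with a median of -0.68. The mean of this list was 6.51, 6.34, 6.82, 6.42 and 6.11 with permethrin and 7.11, 7.31, 7.14, 7.27 and 7.39 with isoniazid. The groups did not overlap, and the controls, at 5.88 to 6.74, lay with the animals on 5000 ppm permethrin. Animals on 10000 ppm permethrin stood at 6.28, 7.01, 7.46, 6.95 and 7.15 and overlapped the isoniazid animals; 4 of these 5 lay above every 5000 ppm and control animal. The difference of the list means, 5000 ppm permethrin minus isoniazid, was -0.81 (exact two-sided permutation test, p = 0.00794, the smallest that 5 against 5 animals can give; adjusted over 13 such quantities 0.103). Tef stood at 8.16 to 8.52 against 8.78 to 9.10 (-0.68, adjusted p = 0.271), and Per1 at 5.28 to 7.75 against 7.89 to 8.53 (-1.12, adjusted p = 0.496), both without overlap. Dbp overlapped, at 5.50 to 6.94 against 6.65 to 8.83.

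A list of 5 genes named for the clock activators, which also holds the repressors Cry1 and Nfil3, had 5 positive differences and a median of 0.44. Arntl stood at 7.03 to 7.36 with permethrin and at 5.97 to 6.90 with isoniazid (0.66, adjusted p = 0.866). The list mean differed by 0.56 (exact permutation test, p = 0.0476, adjusted 0.206) and overlapped between groups. At 14 days the medians of the same lists were -0.52, with 10 of 10 negative, and 0.38, with 5 of 5 positive. The labels do not state at which hour lungs were taken. All 17 glucocorticoid-induced genes, a list that holds Per1 and Mt1, also had a negative difference at 7 days (median -0.43, none past the threshold); at 14 days 14 of 17 were negative (median -0.15).

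Cell type markers were read to see what the lungs held. Sftpc of alveolar type 2 cells and Ager of alveolar type 1 cells stood at the 99.96th and 99.98th percentile of mean signal among genes. Of 26 club cell markers 1 passed, Ces1f, and the list median was -0.10; the list mean was 9.96 to 10.50 with permethrin and 9.95 to 10.29 with isoniazid (difference -0.04, exact permutation test, p = 0.746). Cyp2f2, the main club cell P450 of mouse lung, gave 0.00 (SE 0.052), and Scgb1a1, the club cell secretory protein, 0.02 (SE 0.038). Both lay near the top of the array's scale, with Scgb1a1 at 13.18, the highest normalized value, in several animals, so a difference above that level could not be seen. None of 35 cell cycle genes passed, with 16 positive and a median of -0.01. Mki67, the proliferation marker, stood at 6.25, 6.50, 6.49, 5.17 and 5.99 with permethrin and at 5.98, 6.08, 6.20, 5.70 and 6.51 with isoniazid (-0.01, SE 0.256), and Top2a gave 0.19 (SE 0.219).

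None of the genes of the blood and immune lists passed, and their medians lay on both sides of 0. Of 5 red blood cell genes tested 4 were positive, with Slc4a1 at 2.59, Hbb-b2 at 2.46 and Alas2 at 1.92. The list mean was 6.93, 8.32, 7.15, 7.03 and 7.87 with permethrin and 6.03, 6.62, 6.41, 3.41 and 7.00 with isoniazid (exact permutation test, p = 0.0159, adjusted 0.103). Isoniazid replicate 4 was far below the rest, and the controls stood at 6.48 to 7.64. All 12 neutrophil markers tested had a negative difference (median -0.71), with list means of 6.32 to 7.68 against 6.61 to 8.95, and at 14 days the median was -0.03. Macrophage markers had a median of -0.32, with 3 of 18 positive. Marco stood at 4.53 to 6.06 with permethrin and 5.95 to 7.31 with isoniazid (-1.48, adjusted p = 0.149). B cell and plasma cell markers had 12 of 16 positive (median 0.57), and MHC class II genes, which present antigen to helper T cells, 8 of 8 positive (median 0.48). The neutrophil-recruiting chemokine Cxcl5 stood at 4.58 to 5.85 with permethrin and at 2.31 to 3.33 with isoniazid (2.48, SE 0.573, adjusted p = 0.111). All 5 isoniazid values lie under 3.43, the level of the filter on mean signal, so the size of this difference is uncertain. Of its list, 15 of the 18 chemokine and cytokine genes were negative (median -0.30), and at 14 days 10 of 18 (median -0.05). At 14 days the medians were 0.2 for red blood cell, -0.12 for macrophage, 0.46 for B and plasma cell and 0.52 for MHC class II genes.

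Markers of tissues beside the lung were read as well. Of 20 liver markers 16 were positive (median 0.31), with list means of 4.97 to 6.99 with permethrin and 4.05 to 6.80 with isoniazid (p = 0.627 in the exact permutation test). Alb, the liver's main plasma protein, stood at the 74.0th percentile of genes. Cardiac muscle markers had a median of 0.13, with 21 of 29 positive, and white fat markers of -0.68, with 1 of 9 positive; their list means overlapped between diets (exact permutation tests, p = 0.595 and 0.254). Thymus, brown fat and skeletal muscle lists differed by 0.06, -0.22 and -0.18 (exact permutation tests, p = 0.571, 0.381 and 0.262). Ciliated cell markers had 1 of 27 positive and a median of -0.33, with list means of 6.24 to 6.95 against 6.52 to 7.08 (p = 0.0952 in the exact permutation test, adjusted 0.31). At 14 days the signs of several of these lists turned: 18 of 27 ciliated cell markers were positive (median 0.09), 6 of 9 white fat markers (median 0.13) and 7 of 29 cardiac markers (median -0.04), while 17 of 20 liver markers were positive (median 0.91). The 3' to 5' ratios of Gapdh and Actb overlapped between the diets (log2 differences 0.01 and -0.10, exact permutation tests, p = 0.968 and 0.429). The part of any of these in the 11 genes was not tested.

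**Figure D5:**
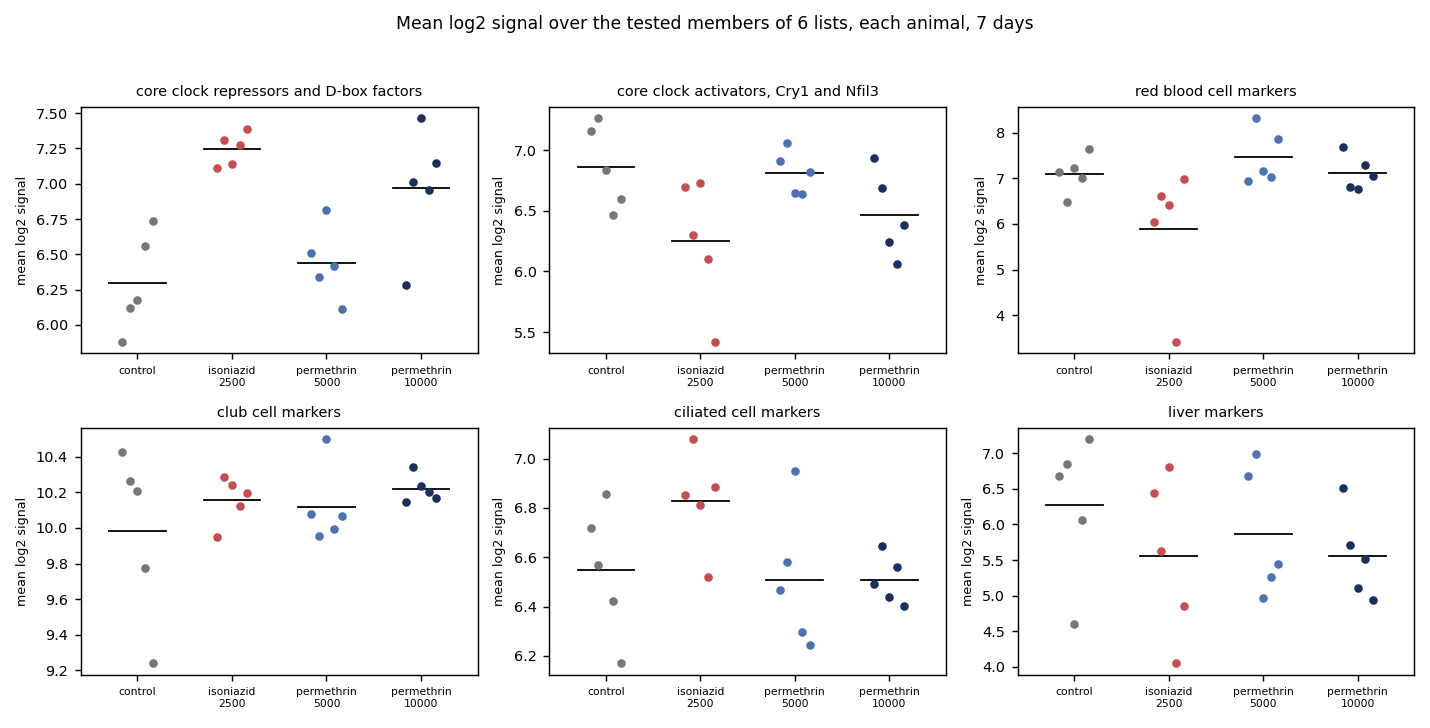
Mean log2 signal (vertical axes) over the tested members of 6 lists, 1 point for each animal and a line at each group's mean, for the 4 diets after 7 days (n = 5 each). The isoniazid animals lie above the 5000 ppm permethrin animals without overlap in the clock repressor panel, 1 isoniazid animal lies at 3.41 in the red blood cell panel, and the other panels overlap.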

How the data were processed

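Per the labels' protocols, 100 ng of each lung's total RNA went into biotin-labelled cRNA with a 3' IVT kit, for hybridization to Affymetrix arrays. The deposited values are signal intensity on a linear scale, computed by the authors with MAS5 per the submitters' processing notes, whose version the sources used here do not give. The trimmed mean of the arrays as deposited was 100.0 on average. Probe sets were named from the platform's annotation, with symbols updated by RefSeq gene ID: of 45101, 34945 had 1 gene, 932 several, 9160 none and 64 were controls.

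The medians of the arrays lay between 17.4 and 26.2 and differed by a factor of up to 1.51, over the limit of 1.5, so log2 values of all 39 arrays were quantile normalized, which gives very bright probe sets nearly equal values. Each of 18193 genes was represented by its brightest probe set. A gene was tested if this set's mean signal lay in the upper 60% of all non-control probe sets (log2 of at least 3.43). This left 13020 genes. Limma 3.58.1 in R 4.3.3 fitted 8 group means with a mean-variance trend, and p-values were adjusted by Benjamini-Hochberg over all genes of a comparison. Scripts used data.table (1.17.8), Python 3.11.15, numpy 2.4.6, scipy 1.17.1, pandas 2.3.3 and matplotlib 3.10.9; the fit was tested on simulated data. List means were compared by exact two-sided permutation of 5 against 5 animals (252 arrangements), adjusted over 13 quantities. Titles call the samples biological replicates, and the number of arrays limits the precision. Between the 10 arrays compared, correlations were 0.918 to 0.942, and no 2 arrays held identical values.

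The members, the 58 gene lists and the motifs were chosen with earlier results of these data known. Genes were named by rule: the 15 largest differences each way past the threshold with all animals on one side of the other diet's mean; up to 4 genes of a list that passed, or up to 2 of lowest p where none did; a set of markers named in any case (among them Cyp1a1, Nqo1, Gsta2, Aldh3a1, Gclc, Mt1, Mt2, Selenbp1, Cyp2b10, Cyp2f2, Scgb1a1, Sftpc, Mki67, Top2a, Dbp, Per1 and Arntl); and, at 14 days and for the change between times, the 5 largest each way, or of lowest p. Other list members and other genes that passed only at 14 days were named after their values were seen. Replicate numbers were not taken as pairs, since the titles do not state a pairing. Same-numbered animals of the 2 diets correlated at 0.0603 to 0.229 in their deviations from group means, over 0.1 in 3 of 5 pairs. These correlations do not decide whether the animals were paired. With the replicate number as a block, 14 genes passed at 7 days, the 11 among them.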

Additional observations from a re-analysis of the deposited data

Results flagged for a closer look

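Within groups of 5 animals, 48 checks for a highest or lowest animal far from the others were made on the 11 genes and 13 list or ratio values of the 2 diets, and 3 stood out; about 1 in 20 would do so by chance. In Alas1, permethrin replicate 5 was the lowest animal at 9.73, against 10.19 for the nearest. In the red blood cell list, isoniazid replicate 4 was the lowest at 3.41, against 6.03. In the club cell list, permethrin replicate 3 was the highest at 10.50, against 10.08. Alas1 still passed without permethrin replicate 5.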

How the results depend on the processing

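The 7-day comparison gave 11 genes as reported. It gave 6 with each array centred on its median, 17 with only the groups compared, 37 with array weights, 19 without arrays of high Gapdh ratio (a setting chosen after seeing the data) and 7 to 13 with 1 animal left out. The 14-day count of 20 became 12 with median centring, 4 with only the groups compared and 14 to 26 with 1 animal left out. Permethrin against control (12) gave 25 with array weights and 8 to 12 with 1 animal left out. Isoniazid against control (6) gave 3 with the deposited scaling, 2 with median centring, 3 with only the groups compared, 19 with only the 7-day groups, 72 with array weights and 1 to 22 with 1 animal left out. With the replicate number as a block the counts were 14, 20, 11 and 9 for these 4 comparisons, and 0 for the change between times, which was 0 in every setting. By their titles the samples share only a number, and 2 of 5 permethrin animals correlated best with the isoniazid animal of their own number.

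Alas1 and Txnrd1 each lost their call in 1 of 22 settings, median centring; Srxn1 lost it in 7, Ephx1 and Gpx2 in 9 and Aox1 in 10, without a change of sign. The cause of these changes was not tested. Values near 0 changed sign: Scgb1a1 to -0.0327 with deposited scaling and -0.073 with median centring, Cyp2f2 to -0.0134 and -0.0538, and Sftpc to -0.0012 and -0.0415, and -0.31 with every probe set tested. Mki67 became 0.0019 with deposited scaling and 0.0796 with array weights. With 1 animal left out, Cyp2f2 ran from -0.0172 to 0.0271, Mki67 from -0.119 to 0.21, the cardiac list from -0.0281 to 0.23, the liver list from -0.0594 to 0.63 and the Gapdh ratio from -0.0944 to 0.14; the last gave -0.0061 with deposited scaling. The median over all genes was -0.01 with deposited scaling and -0.05 with median centring. Dim probe sets limit what can be read of low genes.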

Other observations

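Further lists had no gene past the threshold between permethrin and isoniazid at 7 days. Cholesterol synthesis genes had 3 of 20 positive differences and a median of -0.17 at 7 days, and 1 of 20 and -0.28 at 14 days, when Hsd17b7 passed. Of 24 interferon response genes 15 were positive (median 0.06), and 5 of 24 at 14 days (median -0.10); Rsad2, an antiviral enzyme induced by interferon, gave 1.53 (SE 0.357, adjusted p = 0.118), with permethrin animals at 7.41 to 9.59 and isoniazid animals at 6.01 to 7.60, and 0.11 at 14 days. Among 12 acute-phase proteins Saa3 gave -1.43 (adjusted p = 0.525), at 5.21 to 6.91 against 6.18 to 9.07.

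Ppp1r3c, a glycogen-targeting subunit of protein phosphatase 1, gave 0.66 (SE 0.157, adjusted p = 0.118), with permethrin animals at 8.23 to 8.63 and isoniazid animals at 7.49 to 8.10. It fell by 0.87 with isoniazid against control (adjusted p = 0.00965), while permethrin against control gave -0.21. Of the 14 genes of glycogen metabolism tested, Ppp1r3c included, 6 were positive and the median was -0.04. Amino acid and ER stress genes had 6 of 22 positive (median -0.12), with the amino acid transporter Slc7a5 at -0.91 (adjusted p = 0.718).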
